A study of Mus musculus with 2 samples.

Results

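Vascular smooth muscle and mural cells were chosen in both libraries by their transcripts. A barcode was taken when it held at least 2000 UMIs (unique molecular identifiers, each standing for 1 captured transcript) with less than 10% of them from mitochondrial genes. It also had to have Acta2 and Tagln together at 0.5% of its UMIs or more, at least 2 UMIs of Rgs5, Heyl and Notch3 summed, and no UMI of Wnt2. By this rule 223 of 16418 barcodes were mural cells, 132 of 8253 in the wild-type (WT) library and 91 of 8165 in the knockout (KO) library. These 6 genes chose the cells, so their values below describe the choice and support nothing further.

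The study profiled whole aorta-gonads-mesonephros (AGM) regions of mouse embryos at embryonic day 11 by droplet single-cell RNA sequencing, to ask what the loss of PDGFRβ does to the cells around the aorta. The groups were PDGFRB +/+ (WT) and PDGFRB -/- (KO) embryos, with 1 library each and no sorting before loading. There was thus no replicate, no test was made and no p-value is given. All intervals are 95% intervals of counting error within these libraries, and do not cover differences between embryos, dissections or library preparations. Those of gene levels and their ratios come from UMIs summed over cells, and also leave out the spread between cells. The libraries also differed in sex. Xist, the RNA of the silenced X chromosome, was seen in 127 of the 132 WT mural cells and in 0 KO cells, and Y-linked transcripts in 83 of the 91 KO cells and 0 WT cells, so that genotype, sex and library cannot be told apart.

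Mural cells wrap the endothelial tube. Vascular smooth muscle cells form the contractile layer of larger vessels such as the dorsal aorta, and pericytes sit along small vessels. Endothelial PDGF-B recruits them through PDGFRβ, and Notch3 and its targets of the Hes and Hey family mark and maintain their mural state. Contractile genes are switched on by serum response factor and its partner myocardin at CArG boxes, short AT-rich elements flanked by CC and GG, whereas Notch acts through RBPJ, which binds sites with the core TGGGAA.

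The upstream sequences of 4 actin and myosin genes are shown because Acta2 defines the cells, Actc1 and Acta1 differ in level below, and Myl9 is a contractile gene that was close between the libraries. Acta2, the smooth muscle actin of the rule, lies at chr19:34241090-34255590 on the minus strand, and Actc1, the cardiac actin also used by developing muscle, at chr2:114047282-114053548 on the minus strand. Acta1 encodes skeletal muscle actin and Myl9 the regulatory light chain of smooth muscle myosin. The sequences are the 250 bases before each RefSeq start (GRCm38.p6), namely chr19:34255374-34255623 on the minus strand for Acta2, chr2:114052876-114053125 on the minus strand for Actc1, chr8:123894776-123895025 on the minus strand for Acta1 and chr2:156775214-156775463 on the plus strand for Myl9. The gene spans are those of GENCODE, and the windows were set by the RefSeq transcript start in the promoter table. For Acta2, Actc1 and Myl9 that start lies inside the GENCODE span, which therefore overlaps the window. Capitals mark CArG boxes (CC, 6 bases of A or T, GG) and TGGGAA on either strand, and the patterns do not overlap each other in these windows.
Acta2: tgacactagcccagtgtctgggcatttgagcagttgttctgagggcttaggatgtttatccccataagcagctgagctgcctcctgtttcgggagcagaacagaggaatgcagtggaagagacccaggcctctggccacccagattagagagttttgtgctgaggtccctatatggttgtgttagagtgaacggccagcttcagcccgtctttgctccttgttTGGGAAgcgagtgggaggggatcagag
Actc1: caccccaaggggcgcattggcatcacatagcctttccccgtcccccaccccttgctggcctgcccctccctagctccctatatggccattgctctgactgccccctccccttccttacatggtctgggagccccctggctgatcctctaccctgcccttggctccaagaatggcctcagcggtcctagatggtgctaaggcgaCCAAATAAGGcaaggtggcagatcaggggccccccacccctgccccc
Acta1: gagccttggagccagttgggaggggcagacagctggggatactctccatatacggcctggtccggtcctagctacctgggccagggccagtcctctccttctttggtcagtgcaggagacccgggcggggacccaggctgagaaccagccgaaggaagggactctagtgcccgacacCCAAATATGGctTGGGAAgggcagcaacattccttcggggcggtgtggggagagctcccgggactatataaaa
Myl9: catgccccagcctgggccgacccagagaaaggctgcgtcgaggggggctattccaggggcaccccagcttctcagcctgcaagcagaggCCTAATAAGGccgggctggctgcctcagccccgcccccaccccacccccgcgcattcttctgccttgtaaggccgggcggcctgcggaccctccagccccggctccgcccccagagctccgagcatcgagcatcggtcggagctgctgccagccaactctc

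A CArG box began at -47 in Actc1, at -73 in Acta1 and at -161 in Myl9, and TGGGAA began at -27 in Acta2 and at -61 in Acta1, counted from the start. Of 32851 promoter windows of the same length in the table, 482 (1.47%) held a CArG box and 7094 (21.6%) held TGGGAA. Of 22 genes of the contractile apparatus list, 18 were in the table, and 3 of these (Cnn2, Myl6 and Myl9) held a CArG box. The window of Ankrd1, not printed here, held TGGGAA on the opposite strand at -141 and -63. No match was found for either pattern in the windows of Cnn1, Des, Notch3, Rgs5 and Mcam. Only exact matches were sought. Strings that differ from the CArG pattern in a middle base were not marked or counted. Examples are ccctatatgg in the Acta2 and Actc1 windows and ccttgtttgg in Acta2, which runs into its TGGGAA. A match is a string of letters and not a binding site, and the lack of a match does not show that a site is absent.

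The mural cells were deeply sequenced. The median was 17424 UMIs in WT (2073 to 74736) and 18275 in KO (2950 to 124236), against 13321 and 12391 over all barcodes that passed the depth and mitochondrial limits. The median number of genes was 4248 and 4361, and the median mitochondrial share 6.13% and 6.16%. The Acta2 and Tagln share had a median of 1.28% in WT and 1.11% in KO and reached 4.50% and 3.70%, so that the cells formed a continuous range above the limit (plot of Acta2 and Tagln share against depth). Just inside the limit, 15 WT and 9 KO cells had a share of 0.5% to 0.6%. Just outside, 13 WT and 10 KO barcodes met every other condition with a share of 0.4% to 0.5%, and among them Rgs5 had a level of 403 CPM (UMIs per 1000000) in WT and of 188 CPM in KO, beside 383 and 162 CPM in the cells just inside. The 2 libraries shared 24 barcode sequences among barcodes of at least 2000 UMIs, and no mural cell had its barcode in the other library.

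**Figure D1:**
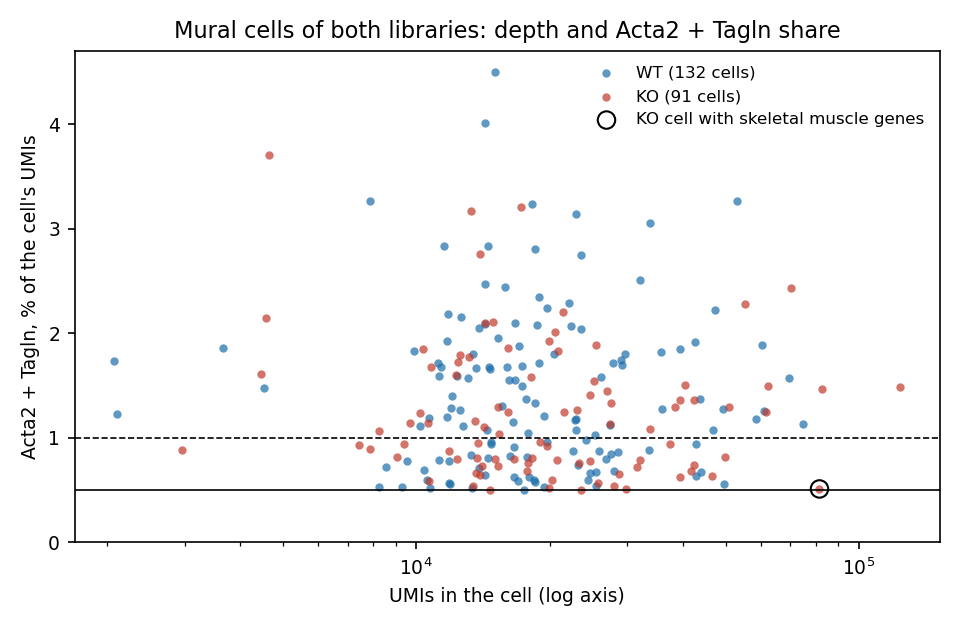
Each point is 1 mural cell, with its total UMIs on a log axis and the share of its UMIs from Acta2 and Tagln on a linear axis. The solid line is the limit of 0.5%, the dashed line the 1% used to part high from low cells, and the circle marks the KO cell with skeletal muscle genes, at 81525 UMIs.

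Some mural markers that the rule did not use were higher than in other barcodes, and others were nearly absent. Cspg4 (NG2, a pericyte proteoglycan) was at 102 and 101 CPM in WT and KO mural cells, against 6.01 and 9.57 CPM in all other barcodes. Mcam (CD146) stood at 181 and 128 CPM against 10.9 and 8.34 CPM, and Kcnj8, a subunit of a potassium channel of mural cells, at 41.0 and 54.7 CPM against 4.50 and 3.30 CPM. A Cspg4 UMI was present in 68.2% of mural cells in WT and 68.1% in KO, beside 0.270% and 0.467% of erythroid barcodes (median depth 16743.5 and 19517 UMIs), which should lack it. Thinned to 2000 UMIs a cell, the shares were 16.7% and 14.3%, beside 0% in erythroid barcodes of both libraries. Of the other genes of the pericyte list, Higd1b had 0 UMIs in WT and 1 in KO, Vtn 15 and 0, Itga7 5 and 2 and Anpep 9 and 15. Zic1 was at 2.10 and 4.45 CPM against 17.7 and 34.1 CPM in other barcodes, and Ifitm1 at 10.9 and 10.7 CPM against 78.0 and 55.4 CPM. All KO UMIs of Zic1 came from 1 cell, the cell with skeletal muscle genes described below, and the other KO cells had 0. The cells are therefore called mural by their rule, and pericytes were not told apart from smooth muscle cells.

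The summed markers of endothelial, macrophage and erythroid cells were lower than in other barcodes. Those of skeletal muscle were higher through Actc1 in WT and through 1 cell in KO, and those of visceral muscle through Actg2. The 8 endothelial genes summed to 41.7 CPM in WT and 41.8 CPM in KO, against 104 and 121 CPM in other barcodes, with Tie1 at 0 in WT. Esam, the most abundant of them, went the other way, at 22.4 and 12.9 CPM against 8.87 and 10.4 CPM. In KO, 1 cell held 54.3% of these endothelial UMIs. The 8 macrophage genes summed to 1.05 and 2.67 CPM, with C1qa, C1qb, C1qc, Csf1r, Ptprc and Mrc1 at 0 in WT and Adgre1 and Ptprc at 0 in KO. The 8 erythroid genes, led by Hbb-y, summed to 316 CPM in WT and 109 CPM in KO, beside 50486 and 20227 CPM in other barcodes, and Klf1 was at 0 in both. The 7 skeletal muscle genes summed to 994 CPM in WT and 724 CPM in KO, against 234 and 475 CPM in other barcodes. Actc1 made nearly all of the WT sum, and Myog, Myf5 and Pax7 were at 0 there, while 1 KO cell held 69.1% of the KO UMIs. Without that cell the KO sum lay below that of other barcodes. In WT each skeletal muscle gene of the list except Actc1 was lower than in other barcodes. The 7 genes of visceral smooth muscle and gut mesenchyme summed to 1221 and 1267 CPM against 193 and 95.7 CPM, and Actg2 made 1186 and 1241 CPM of these sums. The 6 cardiac genes summed to 15.8 and 154 CPM, against 33.7 and 68.5 CPM, and 1 KO cell held 86.7% of the KO UMIs. Without that cell the KO cardiac sum also lay below that of other barcodes. The part of such RNA in the results below was not tested.

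A single KO cell stood apart. It held 81525 UMIs, and 3081 of them (3.78%) came from the sarcomere genes Ttn, Neb, Mylpf, Myl1, Tnnc2 and Myh3, whereas no other mural cell had more than 2 UMIs of this set. It also held 57 UMIs of Myog and 18 of Myod1, the transcription factors of skeletal myogenesis, with 633 of Actc1 and 463 of Acta1. Its Acta2 and Tagln share was 0.51%, it had exactly 2 UMIs of Rgs5, Heyl and Notch3, and it had none of Pdgfrb, Cspg4, Mcam or Myh11. The rule admits this cell, and it supplied between 91.2% and 100% of the KO UMIs of the 10 genes with the largest KO over WT ratio once sex-linked genes are set aside, Myh3, Tnnc2, Tnnt2, Ttn, Mylpf, Neb, Myl1, Sln, Myl4 and Tnnt1. The marker lists, the rule genes, Pdgfrb, the 10 genes lowest in KO and the ratios over all other barcodes are given over all 91 KO cells. So are the mural and pericyte markers set against other barcodes above. Other levels and all values per 10000 UMIs are given over the other 90 (2168166 UMIs) unless stated, a choice made after the data were seen.

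Mural cells made up a smaller share of the KO library. They were 1.60% (1.34 to 1.89) of WT barcodes and 1.11% (0.898 to 1.37) of KO barcodes by exact binomial intervals, a log2 ratio of -0.52 (-0.92 to -0.12). With less than 5% in place of 10%, 21 WT and 17 KO cells remained, and the share was 0.583% in both libraries, a log2 ratio of -0.00035 with a wide interval (-1.01 to 0.99) that holds the value above. At an earlier step, 293 WT and 163 KO barcodes had Acta2 and Tagln at 0.5% or more, of which 96 and 16 held Wnt2 and 65 and 56 had fewer than 2 UMIs of Rgs5, Heyl and Notch3. Mural cells were 45.1% and 55.8% of these Acta2 and Tagln high barcodes.

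Pdgfrb, the deleted gene, was at 178 CPM (163 to 194) in WT against 25.3 (19.2 to 32.8) in KO mural cells, with 509 and 57 UMIs. The log2 ratio was -2.81 (-3.24 to -2.42), beside -2.57 in all other barcodes of the same libraries. Reads from the 3′ end do not show whether the deleted part is present in the remaining transcripts. A Pdgfrb UMI was present in 86.4% of mural cells in WT and 39.6% in KO, and in 34.1% and 6.59% after thinning to 2000 UMIs, beside 0.405% and 0% of thinned erythroid barcodes. In WT 86 cells (65.2%) had UMIs of both Pdgfrb and Cspg4, 28 of Pdgfrb alone, 4 of Cspg4 alone and 14 of neither. In KO 28 cells had both, 8 Pdgfrb alone, 34 Cspg4 alone and 21 neither.

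The genes of the rule were close between the libraries. Acta2 was at 9720 CPM in WT against 7874 in KO (log2 -0.30, -0.33 to -0.28), and Tagln, an actin-binding protein of smooth muscle, at 4767 and 4420 CPM (-0.11, -0.15 to -0.07). Rgs5, a regulator of G protein signaling abundant in pericytes, stood at 302 and 265 CPM (-0.18, -0.34 to -0.03). Heyl, a Notch target, stood at 161 and 139 CPM, and Notch3 at 87.9 and 86.2 CPM with log2 -0.03 (-0.31 to 0.25). The per-cell ranges of Acta2 and Tagln overlapped between the libraries. Acta2 ran from 5.14 to 290 UMIs per 10000 in WT cells with a median of 91.0, and from 18.8 to 205 with a median of 68.4 in KO cells, and Tagln had medians of 41.3 and 41.1.

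Across the transcriptome the libraries differed at few genes. In all mural cells 6062 genes had at least 100 UMIs in both libraries together, and their median log2 KO over WT was 0.03. Of these, 46 (0.759%) were at least 2-fold higher and 51 (0.841%) at least 2-fold lower in KO, where the same 6062 genes in other barcodes gave 27 (0.445%) and 43 (0.709%). The counts in mural cells include the sex-linked Ddx3y and Eif2s3y, at 0 in WT, and Xist, at 0 in KO. Over all 14951 genes compared in other barcodes, 2.09% were higher and 2.16% lower. The other barcodes mix cell types whose numbers differed between the libraries, such as 740 erythroid barcodes in WT and 214 in KO. Barcodes with high Acta2 and Tagln and a Wnt2 UMI numbered 96 and 16. Ratios in other barcodes, here and below, can therefore hold differences in cell numbers as well as in levels, and the 2 were not told apart. Without the muscle-gene cell 34 (0.567%) and 54 (0.901%) of 5996 genes passed these limits, with a median of 0.04, and 3331 of the 5996 were above 0, with a counting interval above 0 for 863 genes and below 0 for 588. The plot of WT against KO levels shows the spread around equality.

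**Figure D2:**
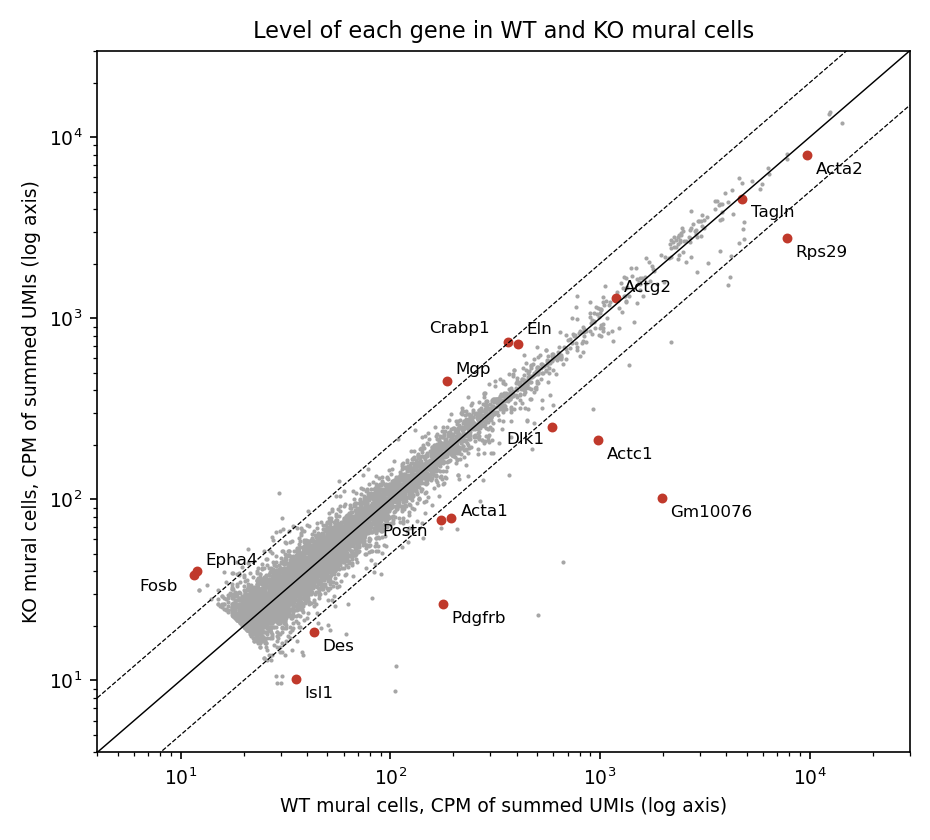
Each point is a gene with at least 100 UMIs over both libraries, with its CPM in WT and in KO mural cells (the muscle-gene cell and sex-linked genes left out) on log axes. The solid line marks equal levels and the dashed lines a 2-fold ratio, and named genes are in red, with Pdgfrb at 178 CPM in WT against 26.3 in KO.

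Most of the genes lowest in KO were similarly low in the other barcodes of that library. With all 91 KO cells Hist1h2ap, a replication histone, had log2 -4.42 in mural cells beside -5.17 in other barcodes, and Gm10076 -4.31 beside -4.36. Usp50 had -3.56 beside -3.62, and Nme2 -3.20 beside -2.86. Hba-x, an embryonic globin, had -1.83 beside -1.73. The ribosomal protein genes Rps29, Rpl38 and Rpl35 did likewise, with log2 of -1.49, -1.42 and -1.56 without the muscle-gene cell beside -1.42, -1.38 and -1.37. They were exceptions in their family, of which 60 of 83 genes compared were above 0, with a median of 0.14, and 4 were 2-fold lower. Over all genes 3331 of 5996 were above 0 and 54 (0.901%) were 2-fold lower. The median of the family was 0.23 in other barcodes.

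Isl1, Trmt10a and Rerg, also among the lowest 10, had a lower KO over WT ratio in mural cells than in the other barcodes. Isl1, a transcription factor of mesoderm progenitors and neurons, was at 35.4 CPM in WT against 9.78 in KO (log2 -1.86), beside -0.38 in other barcodes, but 1 cell held 45.5% of its KO UMIs. Trmt10a, a tRNA methyltransferase, had -1.78 beside -0.83, and Rerg, a Ras-related growth inhibitor, -1.69 beside -0.61. They had 22, 23 and 21 UMIs in KO.

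Actc1 was lower in KO mural cells, while over all other barcodes together it was higher. It was at 983 CPM in WT against 213 in KO, a log2 ratio of -2.21 (-2.35 to -2.06), where other barcodes had 0.88. Among the other barcodes, those with high Acta2 and Tagln and a Wnt2 UMI had 858 CPM in WT against 378 in KO, also lower in KO. With the muscle-gene cell the KO level was 487 CPM and the ratio -1.01 (-1.12 to -0.91). Of the cells, 75.8% in WT and 53.3% of the 90 in KO held an Actc1 UMI, with medians of 3.0 and 0.36 UMIs per 10000 and upper quartiles of 14.2 and 1.80. The lowest cells were at 0 in both libraries and the highest at 78.2 in WT and 32.3 in KO, so the ranges overlapped while the WT distribution lay higher. The highest WT cell held 9.09% of the WT Actc1 UMIs and the highest KO cell 18.2%.

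Acta1 and Des were also lower in KO without the muscle-gene cell. Acta1 was at 194 CPM in WT against 78.4 in KO (log2 -1.30, -1.56 to -1.05), although 1 WT cell supplied 30.7% of its WT UMIs and only 31.1% and 28.9% of cells had any. Des, the muscle intermediate filament desmin, stood at 43.4 and 18.5 CPM (-1.24, -1.79 to -0.71). With the muscle-gene cell included Acta1 was at 281 CPM in KO with log2 0.54 (0.37 to 0.71), and Des had log2 0.12, so the direction of both rested on leaving out that cell. Ankrd1, a muscle stress response gene and YAP target, stood at 90.4 and 38.7 CPM (-1.22), but 1 of the 10 KO cells with a UMI held 71.4% of its KO UMIs.

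Other contractile genes differed less. Of 22 genes of this list 20 could be compared without the muscle-gene cell, 9 above and 11 below 0 with a median log2 of -0.01, beside 0.04 over all genes, and Des alone passed 2-fold. A counting interval lay above 0 for 4 and below 0 for 8 of them, beside 863 and 588 of 5996 over all genes. Acta2 and Tagln of the rule are among the 11 below 0, so that part of this count was fixed by the choice of cells. Actg2, the enteric smooth muscle actin, was at 1186 CPM in WT against 1287 in KO (0.12, 0.05 to 0.19). Cnn1 (calponin) stood at 347 and 384 CPM (0.15), Myh11, the smooth muscle myosin heavy chain, at 298 and 337 CPM (0.18, 0.03 to 0.32), and Myl9 at 1724 and 1602 CPM (-0.11). These are differences of less than 1.2-fold, and per-cell medians for Actg2 were 6.79 UMIs per 10000 in WT and 7.04 in KO. In other barcodes Actg2 had log2 -1.18, Cnn1 -0.48 and Lmod1, a leiomodin that nucleates actin, -0.28 beside 0.19 in mural cells. Among the other barcodes, those with high Acta2 and Tagln and a Wnt2 UMI had Actg2 at 2049 CPM in WT against 1416 in KO.

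Several genes of elastic fibers were higher in KO. Of 20 genes 19 were compared, with 15 above and 4 below 0, beside 3331 of 5996 above 0 over all genes. A counting interval lay above 0 for 9 of the 19, beside 863 of 5996 over all genes. The median of the list was 0.21, beside 0.08 in other barcodes. Eln, elastin itself, was at 406 CPM in WT against 721 in KO (0.83, 0.72 to 0.94), beside 0.38 in other barcodes, and was seen in 65.9% of WT and 88.9% of KO cells with medians of 0.86 and 4.36 UMIs per 10000. Lox, which cross-links elastin and collagen, stood at 27.7 and 59.5 CPM (1.10, 0.69 to 1.53) and was the only gene of the list past 2-fold upwards, although its ratio was -0.023 when Wnt2 cells were kept. Fbln5, which tethers elastin, stood at 433 and 627 CPM (0.53, 0.42 to 0.65). Fbln2 had 0.88 and Mfap4 0.60, while the fibrillins Fbn1 and Fbn2 had 0.16 and 0.21. Postn, a matricellular protein, went the other way at 174 and 77.0 CPM (-1.18, -1.44 to -0.92), close to the -1.05 of other barcodes.

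Mgp, matrix Gla protein, an inhibitor of vascular calcification and of BMP, was among the 10 genes highest in KO after the muscle-gene cell and the sex-linked genes were left out. It was at 186 CPM in WT against 452 in KO (1.29, 1.13 to 1.44), beside 0.73 in other barcodes, with per-cell medians of 1.20 and 2.93 UMIs per 10000. The other genes among those 10 were AY036118 (1.87, beside 2.24 in other barcodes), Epha4, an ephrin receptor (1.75 beside 0.17), Fosb (1.73 beside 0.72), Hist1h1e (1.36), Cavin2 and Gas2 (1.36 each), Calml4 (1.34 beside -0.81), Nfix (1.34 beside 1.25) and Smoc2 (1.30 beside 0.72). Epha4 stood at 11.9 and 40.1 CPM. Fosb UMIs came from 11 KO cells, of which 1 held 28.9%.

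Collagens did not share a direction. Of 17 compared, 8 were above and 9 below 0, with a median of -0.01 beside 0.20 in other barcodes. Col1a1, a chain of fibrillar collagen I, was at 993 CPM in WT against 804 in KO (-0.30, -0.39 to -0.22), and Col3a1 at 1091 and 832 CPM (-0.39). Col12a1 and Col8a1 were higher in KO by log2 0.41 (0.28 to 0.53) and 0.59 (0.30 to 0.88). The basement membrane chain Col4a1 stood at 692 and 596 CPM (-0.22), where other barcodes had 0.31.

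**Figure D3:**
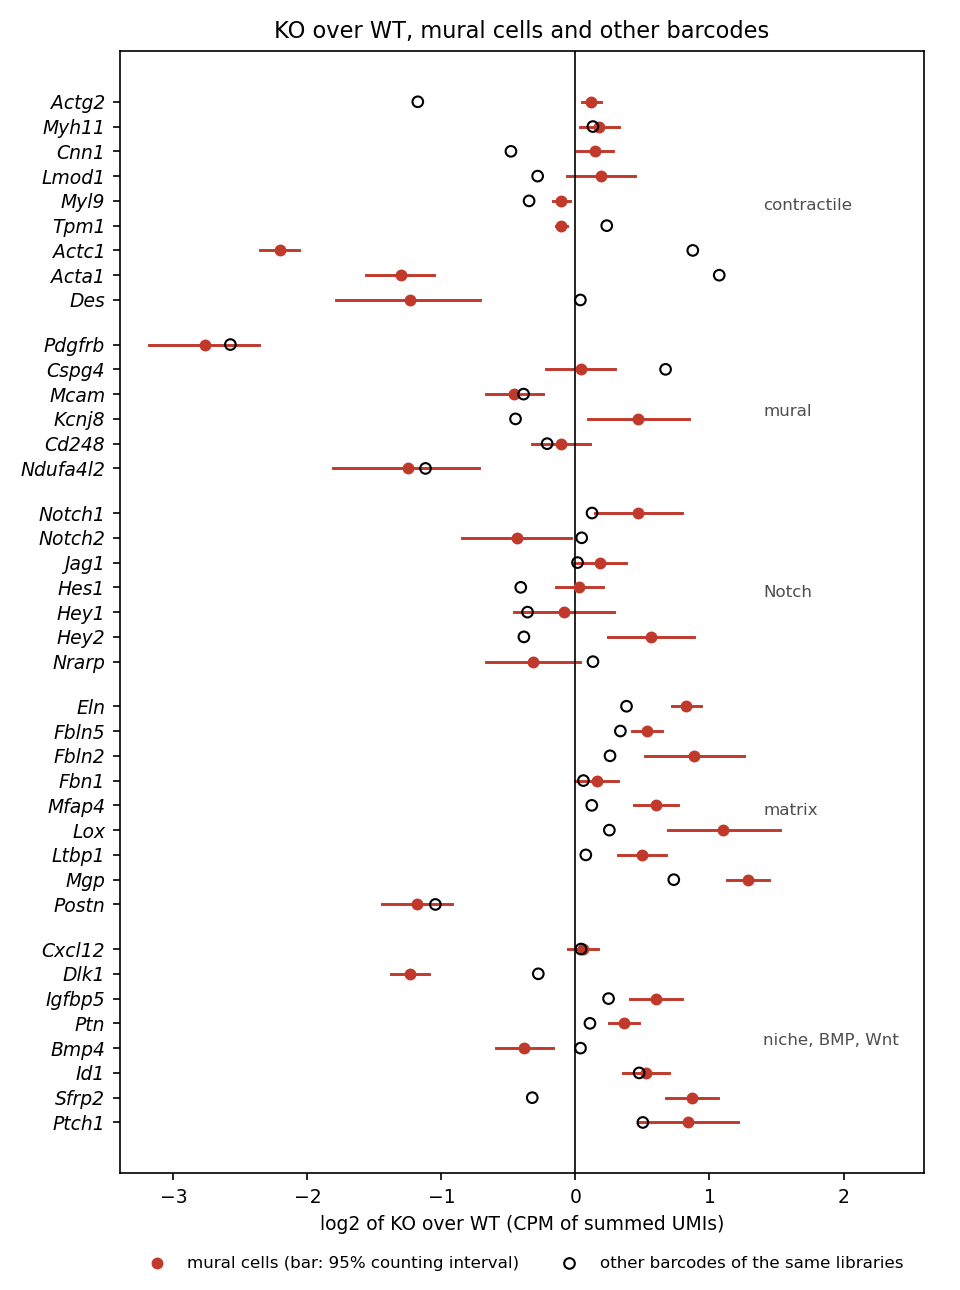
Filled points are log2 ratios of KO over WT CPM in mural cells without the muscle-gene cell, with bars for the 95% counting interval, and open circles the same ratio in all other barcodes of the libraries. Actc1 (-2.21) and Dlk1 (-1.24) lie far below their open circles, and Eln (0.83) and Mgp (1.29) above theirs.

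Pericyte markers and mural regulators were mixed. Of 21 pericyte genes 10 were compared, 5 above and 5 below 0, with a median of -0.03 beside -0.33 in other barcodes, and Rgs5 of the rule is among them. Mcam was lower in KO (181 and 132 CPM, -0.45, -0.67 to -0.24), as in other barcodes (-0.39), and so was Itga1, a collagen-binding integrin (-0.36). Ndufa4l2 was the only gene of the list past 2-fold, with 42.7 and 18 CPM (-1.25) beside -1.12 in other barcodes. Cspg4 (0.04, -0.22 to 0.29) had a counting interval that held 0, and Kcnj8 had 0.47 (0.09 to 0.85) beside -0.45.

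Among 28 transcription regulators 18 were compared, with 10 above and 8 below 0, a median of 0.03 and none past 2-fold. Myocd, myocardin, was at 34.3 CPM in WT against 19.4 in KO (-0.83, -1.38 to -0.29), where other barcodes had 1.37, and Srf, its partner, at 34.3 and 24.0 CPM (-0.52, -1.03 to -0.02). Mef2c, a muscle and neural crest factor, stood at 453 and 316 CPM (-0.52). Gata6 (0.56, 0.29 to 0.82), Tbx18 (0.52, 0.14 to 0.90) and Foxc1 (0.50, 0.29 to 0.71) were higher in KO, and in other barcodes Gata6 had -0.91, Tbx18 -0.19 and Foxc1 0.19.

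Of 20 genes of the Notch pathway 11 were compared, 6 above and 5 below 0, with a median of 0.02 both here and in other barcodes. Notch3 (above 0) and Heyl (below 0) are counted although the rule used them. Of the receptors Notch1 had 0.47 (0.15 to 0.79) and Notch2 -0.43 (-0.84 to -0.03), and the ligand gene Jag1 was at 166 CPM in WT against 189 in KO (0.18). Among targets Hes1 stood at 220 and 225 CPM (0.03), Hey1 had -0.08 and Hey2 0.56 (0.24 to 0.88). Nrarp, a feedback inhibitor, had -0.31 (-0.66 to 0.03).

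Genes of the hematopoietic niche parted in both directions. Of 21 genes 10 were compared, 6 above and 4 below 0, with a median of 0.07. Cxcl12, which retains stem and progenitor cells, was at 495 CPM in WT against 514 in KO (0.06, -0.06 to 0.17). Dlk1, a non-canonical Notch ligand and imprinted growth regulator, was the only gene of the list past 2-fold, at 589 and 250 CPM (-1.24, -1.38 to -1.10), beside -0.28 in other barcodes. It was seen in 94.7% of WT and 83.3% of KO cells, with medians of 4.44 and 1.87 UMIs per 10000 and an upper quartile in KO of 2.86, close to the lower quartile of 2.46 in WT. Ptn (pleiotrophin) and Igfbp5 had 0.36 (0.25 to 0.48) and 0.60 (0.41 to 0.79).

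Of 28 Wnt and hedgehog genes 15 were compared, 12 above and 3 below 0, beside 3331 of 5996 above 0 over all genes. A counting interval above 0 was found for 6 of the 15, beside 863 of 5996 over all genes. The median of the list was 0.28 beside 0.08 in other barcodes, and none of its genes passed 2-fold. Sfrp2, a secreted Wnt modulator, was at 132 CPM in WT against 240 in KO (0.87, 0.67 to 1.06), where other barcodes had -0.32. Ptch1, the hedgehog receptor and target, stood at 37.8 and 67.8 CPM (0.84, 0.47 to 1.21) beside 0.50. Tcf7l2 was lower at 86.9 and 54.9 CPM (-0.66, -0.99 to -0.34) beside -0.51.

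Of 24 genes of the S and G2M phases 23 were compared, with 21 above and 2 below 0, beside 3331 of 5996 above 0 over all genes. The median of the list was 0.31, where other barcodes had -0.05, and none of its genes passed 2-fold. A counting interval lay above 0 for 10 of the 23, beside 863 of 5996 over all genes. Top2a, a topoisomerase of dividing cells, was at 279 CPM in WT against 383 in KO (0.46, 0.32 to 0.60), Mki67 at 143 and 199 CPM (0.48, 0.28 to 0.68) and Cenpf, a kinetochore protein, at 152 and 233 CPM (0.62, 0.43 to 0.81). Mcm2 (-0.05) and Slbp (-0.10) were below 0. Of 13 dissociation and stress genes compared 11 were above 0, beside 3331 of 5996 over all genes, among them Jun (0.65) and Dusp1 (0.60). A counting interval lay above 0 for 8 of the 13, beside 863 of 5996 over all genes, and below 0 for 1. The median of the list was 0.21, beside 0.12 in other barcodes. The part of handling in these and other values was not tested.

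Of 40 Hox genes 15 were compared, with 12 above and 3 below 0, beside 3331 of 5996 above 0 over all genes. A counting interval lay above 0 for 3 of the 15, beside 863 of 5996 over all genes. Their median was 0.28 beside 0.19 in other barcodes. Hoxa5, of the middle of the cluster, was at 29.8 CPM in WT against 66.9 in KO (1.17, 0.77 to 1.57), beside 0.25, and was seen in 37.9% and 60.0% of cells. Glycolysis genes had 3 of 13 above 0, beside 3331 of 5996 over all genes, and a median of -0.06 beside 0.05 in other barcodes. A counting interval lay below 0 for 4 of the 13, beside 588 of 5996 over all genes. Eno1 (enolase) alone passed 2-fold (-1.11), beside -0.92 in other barcodes.

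**Figure D4:**
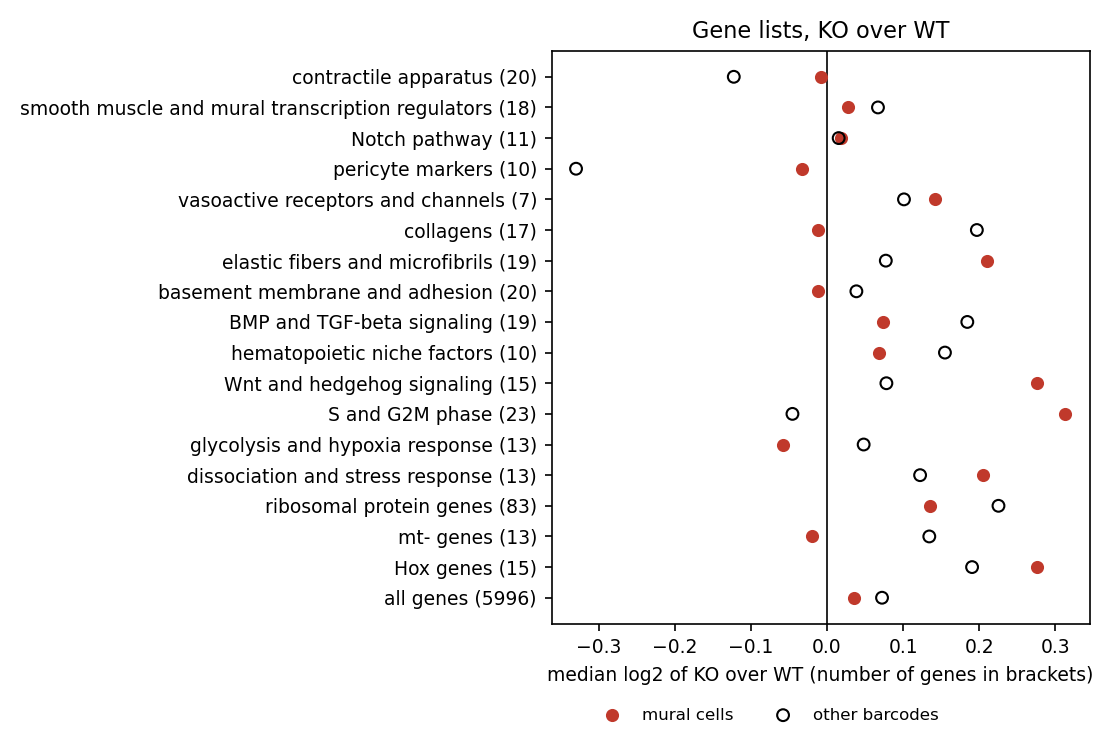
Filled points are the median log2 of KO over WT in mural cells without the muscle-gene cell over the genes of each list that had at least 100 UMIs, and open circles the median of the same genes in all other barcodes. The S and G2M list lies at 0.31 in mural cells and at -0.05 elsewhere, and the contractile list at -0.01 and -0.12.

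Within each library the cells differed in contractile level. Cells with Acta2 and Tagln at 1% of UMIs or more (high, 86 in WT and 49 in KO) were set against those below it (46 and 42). The split uses Acta2 and Tagln, so no value of theirs is a result here, and the other genes are a description without a test. In WT 55 of 4036 genes (1.36%) were at least 2-fold higher and 23 (0.57%) at least 2-fold lower in high cells, and in KO 34 (1.0%) and 26 (0.766%) of 3393. Without the muscle-gene cell, over 3255 genes with at least 100 UMIs in each library, 38 (1.17%) were higher and 11 (0.338%) lower in WT, and 25 (0.768%) and 11 (0.338%) in KO.

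High cells carried more of the contractile program in both libraries. Of 16 genes of the contractile list compared in both, 16 were above 0 in WT with a median of 0.77 and 15 in KO with a median of 0.61. Over all genes, 1691 of 4036 were above 0 in WT with all cells and 1529 of 3255 in KO without the muscle-gene cell. Actg2 stood at 1576 CPM in high and 378 CPM in low WT cells (log2 2.06, 1.90 to 2.22), and at 1813 and 509 CPM in KO (1.83, 1.69 to 1.98). Myh11 had 1.07 in WT and 1.11 in KO, Cnn1 1.37 and 1.07, and Mylk, myosin light chain kinase, 1.44 and 1.22. Smtn (smoothelin) had 0.90 in WT and -0.02 (-0.60 to 0.56) in KO.

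Of the 38 genes 2-fold higher in WT high cells, 36 were above 0 in KO and 16 were 2-fold higher there as well. Actc1 stood at 1343 CPM in high and 236 CPM in low WT cells (2.51, 2.31 to 2.72) and at 325 and 48.0 CPM in KO (2.76, 2.30 to 3.25). Col8a1, a short-chain collagen of vessel walls, had 2.40 and 1.82, Tgfb3 2.24 and 1.22, and Hbegf, an EGF family ligand, 1.87 and 1.07. Itga1 had 1.45 and 1.42, Igfbp7 1.36 and 1.42, and Map3k7cl 1.25 and 1.5. The KO low cells thus stood at 48.0 CPM of Actc1 and the KO high cells at 325 CPM, each below the matching WT cells.

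Low cells held more of 5 genes by 2-fold in both libraries. Igfbp5, an IGF binding protein, stood at 276 CPM in low and 84.6 CPM in high WT cells (-1.70, -2.0 to -1.41) and had -2.31 in KO. Ptn had -1.23 and -1.03, Pkdcc, a secreted kinase of mesenchyme, -1.57 and -1.09, Smarca2, a chromatin remodeler, -1.36 and -1.34, and Fam46a -1.34 and -2.33. Pdgfra, a receptor of fibroblastic mesenchyme, had -1.78 in WT and -2.71 in KO in all mural cells, on 114 and 70 UMIs. With all KO cells, other genes of the 10 highest in WT were Prss12 (2.76 and 2.85), Flt1 (2.18 and 0.77), Itga6 (1.92 and 1.49) and Ctgf (1.90 and 0.66). Of the 10 lowest, Igf1 had -1.90 in WT and 0.28 in KO, Crabp2 -1.74 and -0.85, Creg1 -1.58 and -0.84, Nr2f1 -1.47 and -0.62, Igfbp2 -1.38 and -0.45, and Efemp1 -1.36 and -1.37.

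**Figure D5:**
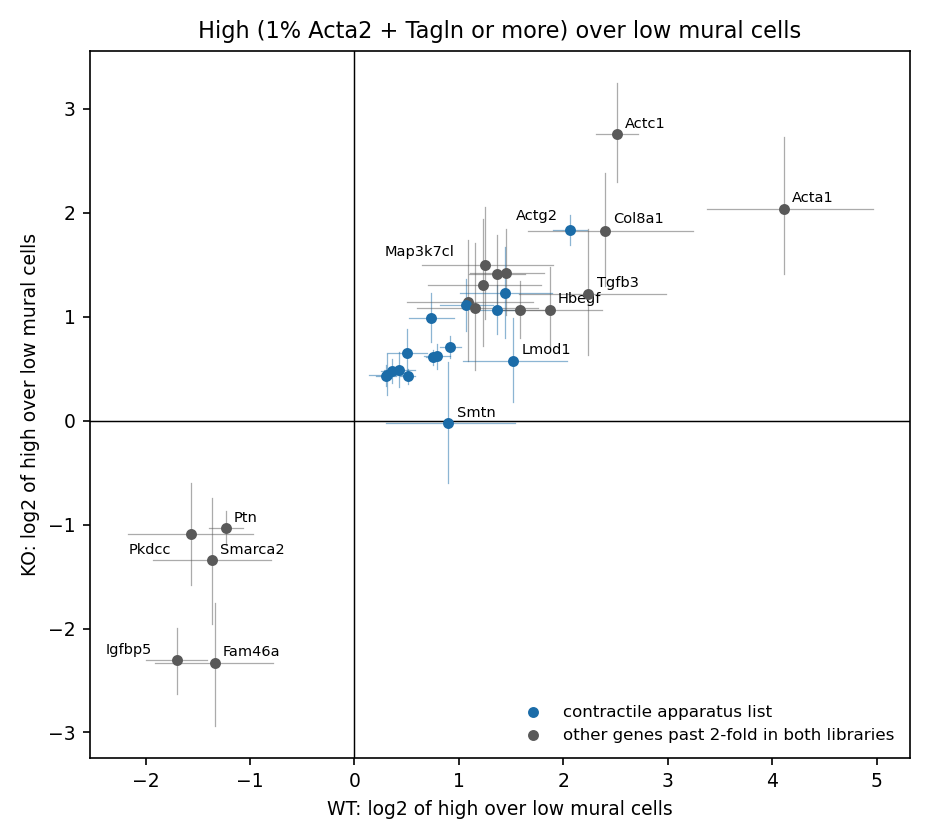
Each point is a gene, with the log2 ratio of high over low mural cells in WT and in KO (without the muscle-gene cell) and bars for the 95% counting intervals. Contractile genes other than Acta2 and Tagln are in blue, and the other genes past 2-fold in both libraries in gray, with Actc1 at 2.51 in WT and 2.76 in KO.

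Over all other barcodes, 931 of 13887 genes (6.7%) were at least 2-fold higher in WT mural cells and 931 of 13808 (6.74%) in KO, and 2218 (16%) and 2285 (16.5%) were at least 2-fold lower, given as a description since the cells were chosen by their transcripts. Among genes of at least 500 CPM the 10 highest were Acta2 (log2 4.78 in WT and 4.98 in KO), Tagln (4.72 and 5.48), Actg2 (4.61 and 5.85), Myl9 (3.52 and 3.72), Actc1 (3.1 and 1.21), Col4a1 (2.97 and 2.40), Actn1 (2.54 and 2.50), Tpm2 (2.45 and 2.41), Tpm1 (2.32 and 1.96) and Fn1 (2.08 and 2.13). They are genes of the actin cytoskeleton and the basement membrane.

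Mural cells were also set beside the nearest cells. The rule removed 96 WT and 16 KO barcodes that had Acta2 and Tagln at 0.5% or more and a Wnt2 UMI, and these are compared as a description. Acta2 (9720 against 8976 CPM in WT) and Tagln (4767 against 4305 CPM) were close in both. Eln stood at 406 CPM in mural and 33.7 CPM in Wnt2 cells of WT (3.59, 3.28 to 3.92) and had 4.56 in KO, and Fbln5 had 3.30 and 2.73. Kcnj8 had 117 UMIs in WT mural cells and 1 in Wnt2 cells (6.79, 4.28 to 12.11), and 2.70 in KO. Cd200, Col8a1 and Map3k7cl had 5.54, 5.50 and 5.24 in WT and 5.0, 4.11 and 4.35 in KO.

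Genes higher in Wnt2 cells of WT included skeletal muscle genes, as Myog stood at 0 CPM in mural and 74.7 CPM in Wnt2 cells, Mylpf at 1.75 and 189 CPM and Myl1 at 1.4 and 105 CPM, and Myh3, Ttn and Tnnc2 were at 0 in mural cells. The WT values are sums over 96 Wnt2 barcodes, and how many of these held the muscle UMIs was not examined. A few barcodes could supply them, as the KO muscle-gene cell alone held 1234 Mylpf UMIs. In KO Wnt2 cells Mylpf had only 9 UMIs and Myl1 1. Phlda2 stood at 0.70 CPM in mural and 88.4 CPM in Wnt2 cells of WT, Hand1 at 1.4 and 83.6 CPM, and Tbx4 at 3.85 and 91.0 CPM. Sparcl1 stood at 23.8 and 344 CPM. In KO Tbx4 had log2 -6.98 and Sparcl1 -3.90 for mural over Wnt2 cells, and Hand1 -3.24 with an interval that held 0 (-8.95 to 0.40).

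Mural cells had to hold UMIs of Rgs5, Heyl or Notch3 and Wnt2 cells did not, which bears on any Notch gene set between them. Nrarp stood at 64.8 CPM in mural and 3.70 CPM in Wnt2 cells (4.13, 3.22 to 5.21), Hey2 had 2.69, Jag1 2.04 and Hes1 0.34. In KO Nrarp had 2.36, Hey2 1.90, Jag1 1.47 and Hes1 1.55, while Hey1 had 1.32 in WT and -0.17 (-0.72 to 0.40) in KO, on only 16 KO Wnt2 cells.

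A further population, 359 WT barcodes outside both with UMIs of Pdgfrb and Cspg4, had lower contractile genes. Their low Acta2 and Tagln follows from the choice, since a barcode above that limit could enter only with fewer than 2 UMIs of Rgs5, Heyl and Notch3. Acta2 stood at 367 CPM, Tagln at 239 CPM, Tpm1 at 1031 CPM and Myl9 at 206 CPM, against 354, 181, 767 and 150 CPM in all barcodes outside the mural cells. Myh11 stood at 298 CPM in mural cells and 5.98 CPM in these barcodes (5.64), Cnn1 at 347 and 9.0 CPM (5.27) and Lmod1 at 99.8 and 3.57 CPM (4.80). Nrarp had 4.71, Mcam 3.69, Rgs7bp 4.68 and Jag1 2.78. Pdgfrb itself stood at 178 and 88.1 CPM and Cspg4 at 102 and 34.2 CPM, although these barcodes were taken for having both. Pdgfra was lower in mural cells, at 39.9 against 186 CPM (-2.22, -2.50 to -1.95), and Foxd1, a stromal transcription factor, at 158 against 196 CPM (-0.32).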

How the data were processed

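The AGM suspensions of 1 WT and 1 KO sample were run on the 10x Chromium 3′ platform. The authors aligned reads and counted UMIs with Cell Ranger 3.1.0 on mm10 (GRCm38), and deposited unfiltered UMI counts per gene and barcode. The files held 179743201 UMIs in WT and 174597654 in KO. Of barcodes with at least 2000 UMIs (9207 and 9157), 8253 and 8165 had under 10% mitochondrial UMIs and formed the denominator. Doublets were not called.

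Counts were summed over the mural cells of each library and given as CPM with exact Poisson intervals. Ratios have exact conditional binomial intervals and shares exact Clopper-Pearson intervals, all at 95% and for counting error only. Genes with at least 100 UMIs over both libraries were compared, and a 2-fold ratio was counted as a description. As each genotype had 1 library, no test was made. The study's test over cells was not used, since cells are not replicates. Cells were thinned to 2000 UMIs with a fixed random seed for shares of cells with a UMI. Promoters and synonyms came from RefSeq, and 10 of 17 promoters sought were matched.

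The genes named were those of the rule and Pdgfrb, the 10 highest and 10 lowest KO over WT, the 10 highest of mural cells over other barcodes with at least 500 CPM, the 10 highest and 10 lowest of high over low cells in WT, and 2 to 6 of each list, except that an item among them is not reported here. The cells, lists and genes were chosen with earlier results of these data known. Genes named from the comparisons with Wnt2 cells and with Pdgfrb and Cspg4 barcodes, and those without the muscle-gene cell, were chosen after their values were seen. Python 3.11.15, numpy 2.4.6, scipy 1.17.1 and edgeR 4.0.16 (for TMM factors) were used. Statistics were tested on simulated data, in which the counts for the intervals were Poisson counts without any spread between cells.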

Additional observations from a re-analysis of the deposited data

Results flagged for a closer look

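The ratio of high over low mural cells had counting intervals on opposite sides of 0 in the 2 libraries for 3 named genes, a difference that was not tested. Acta1 had a log2 ratio of 4.11 in WT and -2.17 in KO, and 2.04 in KO without the muscle-gene cell. Actc1 had 2.51 in WT and -1.12 in KO, and 2.76 in KO without that cell. Ankrd1 had 1.87 in WT and -1.87 in KO, and -1.89 in KO without that cell, on 258 WT and 84 KO UMIs of which 1 WT cell held 29.8% and 1 KO cell 71.4%.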

How the results depend on the processing

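No paired analysis was possible because each genotype had 1 library and no result came from a test, and no replicate could be left out for the same reason. Depth limits genes with few UMIs, and rules on UMI numbers favor deep cells. The log2 ratio of the share of mural cells (-0.52) was -0.00035 under 5% mitochondrial UMIs, with shares of 0.583% and 0.583%, and -1.10 without KO cells holding a Pdgfrb UMI, with 0.747% in KO. The shares in WT and KO were 2.17% and 1.58% at 0.25% Acta2 and Tagln, 1.04% and 0.60% at 1%, and 0.509% and 0.282% when cells were chosen after thinning, and 2.23% in WT with Wnt2 cells kept. The cause of these shifts was not tested.

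Of 46 genes 2-fold higher in KO, the number became 20 under 5% mitochondrial UMIs, 75 at 0.25%, 13 at 1%, 26 with 1 UMI of Rgs5, Heyl and Notch3 per 5000, 19 after thinned selection, 29 without cells holding genes of other types, 7 after thinning, 1820 with no minimum of UMIs and 3 with at least 500. Of 51 lower, it became 33 under 5% mitochondrial UMIs, 109 with Wnt2 cells kept, 32 after thinned selection, 16 after thinning, 2013 with no minimum and 20 with at least 500. A split of high and low cells at 2% gave 23 higher and 83 lower in WT and 169 lower in KO, the mean of per-cell CPM gave 19 higher in KO, and leaving out the muscle-gene cell (chosen after seeing the data) gave 12 lower in KO. Thinned to 1000 UMIs, 15.2% of mural cells in WT and 1.10% in KO held a Pdgfrb UMI, and 39.4% and 14.3% an Actc1 UMI.

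The sign turned for genes that the muscle-gene cell supplied. With 4 or more UMIs of Rgs5, Heyl and Notch3, Myl1, Sln and Myl4 had -1.63, -0.63 and -0.21, with 1 per 5000 -1.55, -0.55 and -0.14, without cells holding other types' genes -1.61, -0.61 and -0.12, and without that cell -1.60, -0.60 and -0.12. Myl4 had -0.60 at 1% Acta2 and Tagln and Mylpf -0.28 after thinned selection. Lox had -0.023 with Wnt2 cells kept. In KO high over low cells Actc1 had 0.73 with the split at 2%, 0.55 by per-cell means and 2.76 without that cell, and Acta1 2.04. Of 1116 alternatives for KO over WT in single genes 860 stayed close to the value reported, 241 moved and 15 turned, and 74 changed sign. Of 87 for single genes in high over low cells 67 stayed close, 16 moved and 4 turned, and 6 changed sign. Of 310 for list medians 292 stayed close, and 53 changed sign.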

Other observations

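Of 23 genes of receptors and channels of vascular tone, 7 reached 100 UMIs, beside 5996 of 31053 over all genes, 4 above and 3 below 0 without the muscle-gene cell, with a median log2 KO over WT of 0.14. The soluble guanylate cyclase subunit Gucy1a1 was at 77.1 CPM in WT against 91.8 in KO (0.25, -0.03 to 0.54), and Pde5a, which degrades its product, at 25.9 and 43.4 CPM (0.74, 0.29 to 1.20). Ednra, the endothelin receptor of smooth muscle, had -0.22 (-0.56 to 0.12).

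Of 20 basement membrane and adhesion genes compared, 9 were above and 11 below 0 with a median of -0.01. Itga4, an integrin subunit, was at 134 CPM in WT against 75.6 in KO (-0.82, -1.10 to -0.56), where other barcodes had 0.38, and Nid1 (nidogen) had 0.38 (0.17 to 0.59). Of 19 BMP and TGF-beta genes, 11 were above and 8 below 0 with a median of 0.07. The BMP response genes Id1, Id2 and Id3 had 0.53 (0.36 to 0.70), 0.63 (0.44 to 0.81) and 0.30 (0.23 to 0.37). Id4, of the same family, differed less, on 262 UMIs in WT and 219 in KO. Bmp4 stood at 175 and 134 CPM (-0.38, -0.59 to -0.17), beside 0.04 in other barcodes. Crabp1, a retinoic acid binding protein that stood out after its values were seen, had per-cell medians of 1.57 UMIs per 10000 in WT and 4.33 in KO.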
